A study of Mus musculus with 6 samples.

Results

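The genes of the proteasome and of its interferon-inducible form were compared between regulatory T cells (Tregs) of mice with and without DJ-1, the protein that Park7 encodes. Members were all genes with a single symbol in the platform annotation that begins with Psm, a family letter from a to g and a number. There were 48 such genes, covered by 566 exon-level probe sets, of 23152 genes with a single symbol. The cells were CD4+CD25high Tregs sorted from spleens of male mice aged 45 weeks, kept pathogen-free and untreated. The KO group held 3 DJ-1-/- mice and the WT group 3 DJ-1+/+ littermates, with 1 Affymetrix Mouse Gene 2.0 ST array per mouse. The sources used here do not give the strain, the design of the deleted allele or its other tissues, so effects that arise outside Tregs cannot be told apart from effects within them.

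The proteasome is the protease that degrades ubiquitin-tagged proteins in the cytosol and nucleus. Its barrel, the 20S core, stacks rings of alpha subunits (Psma genes) around rings of beta subunits (Psmb genes), of which Psmb5, Psmb6 and Psmb7 encode the catalytic ones. The 19S cap recognises, unfolds and feeds in substrates through ATPases (Psmc genes) and other subunits (Psmd genes). In immune cells and under interferon gamma, Psmb8, Psmb9 and Psmb10 encode replacements for the catalytic subunits and form the immunoproteasome. Psme1 and Psme2 encode the PA28 alpha and beta activator that can cap it. The immunoproteasome is best known for cutting peptides that MHC class I molecules display.

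The promoters of 3 of the 5 inducible genes are shown. All 5 lay lower in KO by the median of probe sets, and interferon response motifs were searched in the promoters of all 5. Sequences are RefSeq's on GRCm38.p6, from 250 bases before to 30 bases after the gene start, 5′ to 3′ on the gene's strand. Capitals mark a match to the interferon-gamma activated site TTCNNNGAA (in Psmb8) or, on the other strand, to the interferon-stimulated response element (in Psme1), searched as GAAA, any 2 bases and GAAA. The Psmb9 window held neither, and nor did the windows of Psmb10 and Psme2, which are not shown.
Psmb9 promoter, chr17:34187301-34187580, - strand: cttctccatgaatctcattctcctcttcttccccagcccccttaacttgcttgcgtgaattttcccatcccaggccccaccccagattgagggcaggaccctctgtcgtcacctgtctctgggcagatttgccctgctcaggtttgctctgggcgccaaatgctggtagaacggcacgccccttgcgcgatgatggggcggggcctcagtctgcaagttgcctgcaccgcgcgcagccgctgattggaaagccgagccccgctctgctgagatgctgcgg
Psmb8 promoter, chr17:34197945-34198224, + strand: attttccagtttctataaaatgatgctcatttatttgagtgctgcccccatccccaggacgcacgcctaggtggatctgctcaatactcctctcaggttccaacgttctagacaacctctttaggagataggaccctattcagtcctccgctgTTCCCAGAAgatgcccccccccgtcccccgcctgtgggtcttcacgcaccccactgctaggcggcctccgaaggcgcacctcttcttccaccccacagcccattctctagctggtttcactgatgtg
Psme1 promoter, chr14:55578244-55578523, + strand: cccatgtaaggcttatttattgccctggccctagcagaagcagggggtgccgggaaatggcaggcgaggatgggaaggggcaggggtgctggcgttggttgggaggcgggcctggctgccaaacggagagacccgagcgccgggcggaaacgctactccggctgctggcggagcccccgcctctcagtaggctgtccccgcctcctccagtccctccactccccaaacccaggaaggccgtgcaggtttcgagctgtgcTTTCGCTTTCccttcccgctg

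Motif matches were few, and they describe letters only. Of 48 members 40 had an entry, with 43 promoter windows of 300 bases (to 50 bases after the start), and both strands were searched. TTCNNNGAA was found in 1 of 6 windows of the inducible genes, 1 of 27 windows of the constitutive 20S and 19S genes and 8.30% of all 32851 windows. The response element was found in 1 of 6, 2 of 27 and 3.44% of the same sets. The antioxidant response element TGACNNNGC, a motif bound by the proteasome regulator Nfe2l1 and its relatives, was found in 0 of 6, 4 of 27 and 12.4%. The 4 constitutive genes with it were Psmb5, Psmb6, Psmc6 and Psmd12. No 2 of these matches overlapped in a member's window.

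The arrays were similar, with 1 exception. Values are given as log2(intensity + 16), where a gene's value is the median of its probe sets. That median can fall on different probe sets in different arrays, so differences by the mean of probe sets are also given for some genes. Genes without such a value may depart too. The median intensity was lowest in KO replicate 1 (88.6) and highest in WT replicate 2 (100.2). The values of KO replicate 1 correlated least with those of the other arrays (0.951 on average, against 0.956 to 0.964), so results are also given without it. Park7 was at 6.06, 5.96 and 5.71 in KO and 9.48, 9.27 and 9.70 in WT, which checks the labels. The Treg factor Foxp3 was at 12.73 ± 0.03 in KO and 12.66 ± 0.02 in WT (SD, n = 3 each). Of 13891 genes bright enough to test, 38 passed a limma adjusted p of 0.05, which is 0.274%. With 3 arrays a group, their number sets how precise these values are.

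Psmb9, the inducible subunit that replaces Psmb6, had the largest difference of the family when probe sets were summarised by their median. It was at 8.95, 8.85 and 8.99 in KO replicates 1 to 3, against 9.65, 9.68 and 9.72 in WT replicates 1 to 3. The KO values all lay lower than the WT values, with a gap far wider than the spread within a group. The means were 8.93 ± 0.07 in KO and 9.68 ± 0.04 in WT (SD, n = 3 each). The difference was -0.75 (SE 0.13), or 0.593 times the WT level on this scale, and missed the threshold with a limma adjusted p of 0.0554. Without KO replicate 1 the difference was -0.76 (adjusted p = 0.0654), and with each array left out in turn it ranged from -0.78 to -0.71 (adjusted p from 0.0654 to 0.274). With the mean of probe sets the difference was -0.45 (adjusted p = 0.0940), less than that of Psma1 (-0.46), and with bright probe sets alone it was -0.78, less than that of Psmb2 (-0.80). Without WT replicate 3 Psma1 was ahead of it, and without KO replicate 2 or 3 Psmb1 was. Psmb9 passed in 4 other settings, listed with their values among the limits, and its adjusted p ranged from 0.0178 to 0.274 over all settings.

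The other 4 inducible genes were also lower in every KO array than in any WT array. Psmb8, whose product replaces that of Psmb5, was at 10.02, 10.07 and 10.15 in KO and 10.30, 10.29 and 10.35 in WT. Its difference was -0.23 (SE 0.13, adjusted p = 0.566). Psmb10, whose product replaces that of Psmb7, was at 10.61, 10.54 and 10.56 in KO and 10.70, 10.64 and 10.63 in WT. Those 2 sets of values nearly touched, and the difference of -0.085 (SE 0.13, adjusted p = 0.840) turned to 0.017 when arrays were centred on the tested genes. Psme1 was at 9.94, 10.17 and 9.90 in KO and 10.41, 10.25 and 10.37 in WT, a difference of -0.34 (SE 0.14, adjusted p = 0.425). Psme2 was at 7.99, 7.63 and 7.73 in KO and 8.21, 8.15 and 8.31 in WT, a difference of -0.44 (SE 0.15, adjusted p = 0.314). In these sorted bulk samples, less RNA per cell and fewer cells that carry a transcript cannot be told apart.

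**Figure D1:**
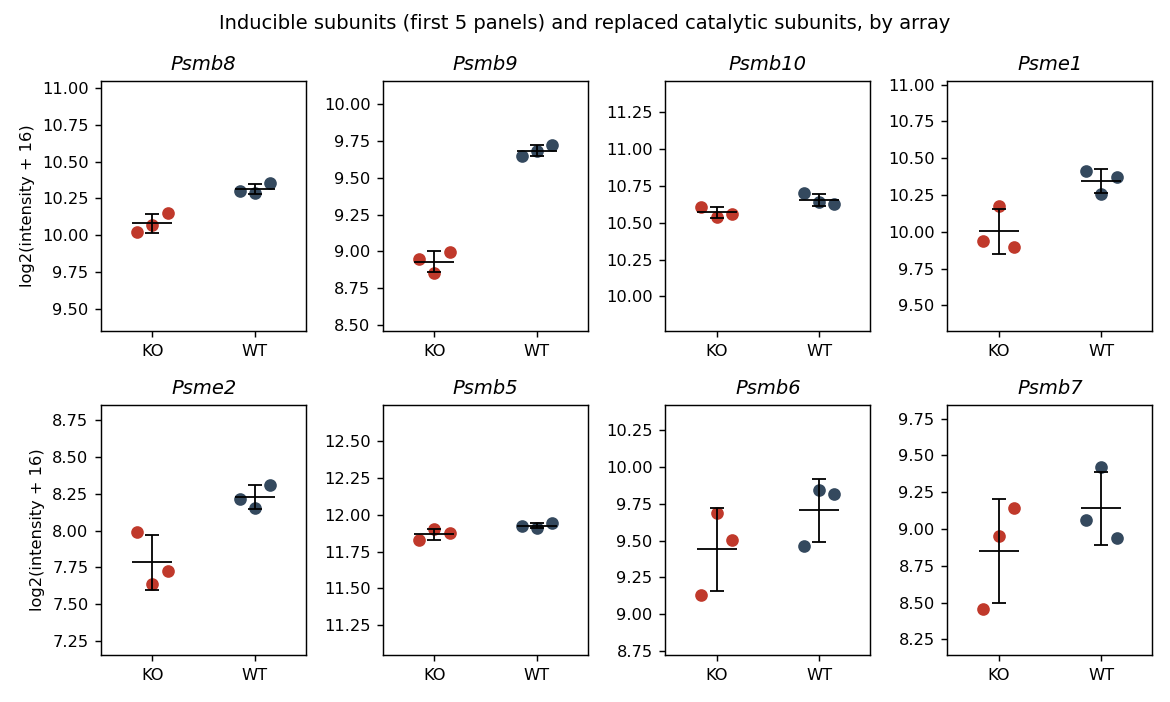
Level of the 5 inducible genes and of the 3 catalytic genes they replace, as log2(intensity + 16), in each KO (left) and WT (right) array, with the mean and SD of 3 arrays as bars. Every panel spans an equal range of log2 units, and the gap between KO and WT is widest for Psmb9 (-0.75).

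As a list, 5 of 5 inducible genes had KO arrays all below WT arrays, where 11.3% of all tested genes did. Their median difference was -0.34, beside -0.052 over all tested genes, and it was -0.14 with the mean of probe sets. By that mean Psmb8 was at -0.14, Psmb10 at -0.051, Psme1 at -0.21 and Psme2 at 0.17. None passed the adjusted threshold, and 3 (Psmb9, Psme1 and Psme2) were lower at an unadjusted limma p of 0.05, as were 7.67% of all tested genes. Without KO replicate 1 the median was -0.31, and 5 of 5 again lay below every WT array, where 15.3% of tested genes did. The array medians over tested genes were lower in KO by 0.10, and after each array was centred on that median the list's difference was -0.24. After that centring 2 of 5, Psmb9 and Psme1, still lay below every WT array, where 6.86% of tested genes did.

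Within Psmb9 most but not all probe sets were lower in KO. Of its 10 probe sets 7 had all KO arrays below all WT arrays, with differences from -1.08 to -0.42, where 7.95% of all probe sets with 1 symbol did. The most different, probe set 17343790, was at 7.70, 8.34 and 7.85 in KO and 9.22, 8.93 and 8.99 in WT. The 3 with the highest numbers, 17343798, 17343799 and 17343800, overlapped between the groups, with differences of 0.18, -0.16 and -0.0081. The median of the 10 differences was -0.43, smaller than the -0.75 between medians taken per array. The position of each probe set within the gene was not used here.

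Probe sets of the other inducible genes were less uniform. Psmb8 had 5 of 11 with KO arrays all below WT arrays, Psme1 had 4 of 14, and Psmb10 had 0 of 10. The value of Psme2 is uncertain, since its 3 probe sets disagreed and RefSeq lists a close copy, Psme2b. Probe set 17306717 differed by -0.61 with no overlap, at 7.74, 7.63 and 7.73 in KO and 8.21, 8.15 and 8.58 in WT. Probe set 17306718 differed by 0.069, and 17262225 differed by 1.06 with values from 6.10 to 7.99 in KO and from 4.23 to 7.49 in WT. Over all 48 inducible probe sets 17 (35.4%) had KO arrays all below WT arrays, where 7.95% of all probe sets did, and 0 had them all above, where 6.03% did. Of those 17, 7 were probe sets of Psmb9. Of 380 constitutive probe sets 70 (18.4%) had KO arrays all below and 11 all above. Most probe sets of both lists, 44 of 48 and 326 of 380, were at or above the median brightness of all probe sets. The part of brightness in these shares was not tested. Differences were negative for 39 of 48 inducible probe sets and 291 of 380 constitutive ones (76.6%), where 53.7% of all probe sets were negative.

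**Figure D2:**
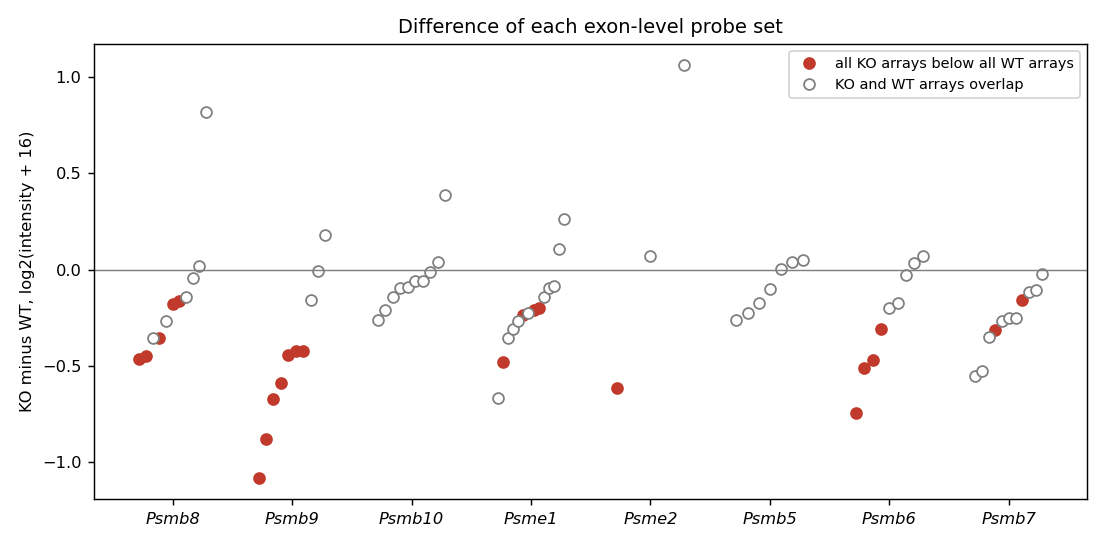
KO minus WT difference, on the log2(intensity + 16) scale, of each exon-level probe set of the 5 inducible genes and the 3 catalytic genes they replace. Filled points have all KO arrays below all WT arrays, which holds for 7 of 10 Psmb9 probe sets and 0 of 10 of Psmb10.

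The catalytic genes of the constitutive core had differences from -0.29 to -0.058. Psmb5, which encodes the chymotrypsin-like subunit, was at 11.83, 11.90 and 11.88 in KO and 11.93, 11.91 and 11.94 in WT. These values did not overlap, yet the difference was -0.058 (SE 0.13, adjusted p = 0.899) and became 0.045 when arrays were centred on the tested genes. Psmb6, which encodes the caspase-like subunit, was at 9.13, 9.68 and 9.50 in KO and 9.46, 9.84 and 9.82 in WT. Its groups overlapped, and the difference was -0.27 (SE 0.18, adjusted p = 0.641), or -0.11 without KO replicate 1. Psmb7, which encodes the trypsin-like subunit, was at 8.45, 8.95 and 9.14 in KO and 9.06, 9.42 and 8.94 in WT. Its groups overlapped as well, with a difference of -0.29 (SE 0.20, adjusted p = 0.652), or -0.093 without KO replicate 1.

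Inducible and constitutive partners were then compared within each array, which removes any shift common to both genes. The difference of log2 values Psmb9 minus Psmb6 was -0.18, -0.83 and -0.51 in KO and 0.19, -0.16 and -0.092 in WT. The groups did not overlap, and the KO minus WT difference was -0.49 (exact two-sided permutation p = 0.1, the smallest that 3 against 3 arrays allow, and 0.15 adjusted over 3 pairs). Leaving out KO replicate 2 brought this to -0.32, and leaving out KO replicate 1 brought it to -0.65. Psmb8 minus Psmb5 was -1.81, -1.83 and -1.73 in KO and -1.63, -1.62 and -1.59 in WT. Here too the groups did not overlap, and the KO minus WT difference was -0.18 (exact permutation p = 0.1, adjusted 0.15). Psmb10 minus Psmb7 was 2.15, 1.59 and 1.42 in KO and 1.64, 1.22 and 1.69 in WT. These overlapped, with a difference of 0.20 (exact permutation p = 0.6, adjusted 0.6) that became -0.012 without KO replicate 1. With the mean of probe sets the Psmb9 pair differed by -0.19 (exact permutation p = 0.2), the Psmb8 pair by -0.047 (p = 0.3) and the Psmb10 pair by 0.21. Between the partners of a pair only the change between groups can be read, since levels of different probe sets are not on a shared scale.

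The wider constitutive proteasome had mostly negative differences, whose size depended on KO replicate 1. Of 30 tested constitutive 20S and 19S genes 27 had negative differences, with a median of -0.26, where 59.7% of all tested genes were negative. With the mean of probe sets their median was -0.22, below the -0.14 of the inducible genes. Without KO replicate 1 the median was -0.15, with 25 of 30 negative, where 51.7% of tested genes were. The KO arrays lay all below the WT arrays for 9 of 30, where 11.3% of tested genes did, for 10 of 30 without KO replicate 1, where 15.3% did, and for 6 of 30 after centring, where 6.86% did. Relative to the WT mean of each gene, the median of the 30 was -0.38, -0.073 and -0.16 in KO replicates 1 to 3. The same median over the 5 inducible genes was -0.29, -0.24 and -0.45. KO replicate 1 was the lowest of all 6 arrays for 17 of 30 constitutive genes (56.7%), for 1 of 5 inducible genes and for 38.2% of all tested genes. Whether the lists differ from each other was not tested beyond the 3 pairs.

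**Figure D3:**
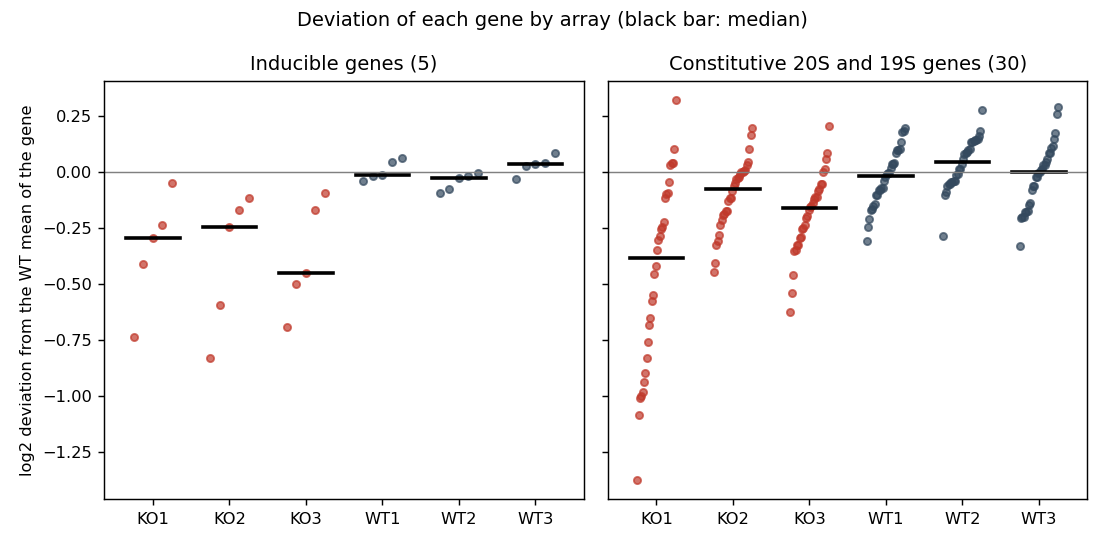
Deviation of each inducible gene (left panel) and each constitutive 20S or 19S gene (right panel) from its WT mean, in log2 units, in the 3 KO and 3 WT arrays, with the median as a bar. The inducible medians are low in all 3 KO arrays (-0.29, -0.24 and -0.45), while the constitutive median is lowest in KO replicate 1 (-0.38).

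In the alpha ring, which gates the core, 6 of 7 genes could be tested. All 6 had negative differences, from -0.58 to -0.18, where 59.7% of all tested genes were negative. Psma1 was at 8.87, 9.44 and 9.50 in KO and 10.03, 9.99 and 9.52 in WT. The nearest KO and WT values almost met, and the difference was -0.58 (SE 0.21, adjusted p = 0.362), or -0.38 without KO replicate 1. Psma4 was at 8.81, 9.28 and 9.35 in KO and 9.39, 9.49 and 9.49 in WT. Its difference was -0.31 (SE 0.17, adjusted p = 0.564), or -0.14 without KO replicate 1. Psma2 (-0.21), Psma3 (-0.30), Psma6 (-0.18) and Psma7 (-0.33) overlapped between the groups, and Psma3 turned to 0.047 without KO replicate 1. Psma5 lay under the brightness floor of 5.90, at 5.36, 5.63 and 5.19 in KO and 5.62, 5.66 and 5.47 in WT, and was not tested.

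Among the beta subunits without a catalytic site, Psmb1 had a value that depended on the summary of its 5 probe sets. It was at 8.30, 9.40 and 9.35 in KO and 9.78, 9.64 and 9.62 in WT. The groups did not overlap, and the difference was -0.66 (SE 0.26, adjusted p = 0.413), or -0.30 without KO replicate 1. The low value of KO replicate 1 falls on probe set 17341199, which was at 8.30, 8.33 and 8.25 in KO and 8.36, 8.53 and 8.56 in WT, while other arrays' values fall on brighter ones. The 5 probe sets differed from -0.71 to 0.15, with a median of -0.19, and their mean gave -0.33 for Psmb1. Psmb2 was at 8.99, 9.21 and 8.94 in KO and 9.27, 9.25 and 9.35 in WT, a difference of -0.25 (SE 0.14, adjusted p = 0.579), or -0.80 with bright probe sets alone. Psmb4 overlapped between the groups and differed by -0.40 (adjusted p = 0.478), or -0.14 with the mean of probe sets.

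Psmb3, a further beta subunit, was the constitutive gene with KO arrays all above WT arrays. It was at 8.93, 9.02 and 9.03 in KO and 8.92, 8.93 and 8.62 in WT, a difference of 0.17 (SE 0.14, adjusted p = 0.706). Its 2 probe sets went opposite ways. The bright one, 17255864, was at 11.69, 11.90 and 11.97 in KO and 12.04, 12.01 and 12.08 in WT, a difference of -0.19. The dim one, 17255863, differed by 0.53, so the direction of Psmb3 depends on which is used.

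In the 19S cap, 5 of 6 ATPase genes had negative differences, with a median of -0.26, where 59.7% of all tested genes were negative. Psmc1 was at 8.75, 8.86 and 8.80 in KO and 9.03, 9.18 and 8.89 in WT, a difference of -0.23 (SE 0.14, adjusted p = 0.593). Psmc2 was at 7.34, 7.76 and 7.72 in KO and 7.82, 7.97 and 7.87 in WT, a difference of -0.28 (SE 0.15, adjusted p = 0.572), or -0.15 without KO replicate 1. These were the ATPase genes without overlap of the groups. The others were Psmc5 (-0.29), Psmc6 (-0.28, and 0.082 without KO replicate 1), Psmc4 (-0.025) and Psmc3 (0.039), with Psmc4 turning positive under each scaling alternative.

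Among the 11 other cap subunits 10 had negative differences, with a median of -0.23, where 59.7% of all tested genes were negative. Psmd6, a subunit of the cap's lid, was at 7.42, 8.17 and 7.90 in KO and 8.33, 8.42 and 8.34 in WT. All KO arrays were lower, with a difference of -0.53 (SE 0.19, adjusted p = 0.358), or -0.33 without KO replicate 1 and -0.30 with the mean of probe sets. Psmd8, another lid subunit, was at 10.93, 10.86 and 11.08 in KO and 11.29, 11.15 and 11.13 in WT, a difference of -0.23 (SE 0.14, adjusted p = 0.591), or -0.14 with the mean of probe sets. Psmd14, the deubiquitinase that strips ubiquitin from substrates, was at 8.35, 8.99 and 9.39 in KO and 9.58, 9.15 and 9.59 in WT. Its groups overlapped, and the difference of -0.53 (SE 0.25, adjusted p = 0.501) was -0.25 without KO replicate 1 and -0.23 with the mean of probe sets. Psmd12 (-0.43, and -0.19 without KO replicate 1), Psmd7 (-0.28), Psmd11 (-0.23), Psmd13 (-0.17) and the ubiquitin receptor gene Psmd4 (-0.17) also overlapped. By the median of probe sets the scaffold genes Psmd2 (-0.092) and Psmd1 (-0.057) and the lid gene Psmd3 (0.035) lay nearest to no difference. Psmd1 and Psmd2 turned positive, at 0.045 and 0.0099, when arrays were centred on the tested genes.

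The assembly chaperones build the core and the cap and do not stay in the finished particle. Psmd10, the cap chaperone gankyrin, was at 9.04, 9.47 and 8.96 in KO and 9.65, 9.54 and 9.58 in WT. The groups did not overlap, and the difference was -0.43 (SE 0.16, adjusted p = 0.382), or -0.37 without KO replicate 1. Its 8 probe sets were all lower in KO by mean, from -0.61 to -0.34, where 53.7% of all probe sets with 1 symbol were. Of the 8, 4 had all KO arrays below all WT arrays, where 7.95% of all probe sets did. The cap chaperones Psmd5 (-0.23) and Psmd9 (-0.10) overlapped between the groups. So did the alpha ring chaperones Psmg4 (-0.19), Psmg2 (-0.049), Psmg3 (0.022) and Psmg1 (0.029). With the mean of probe sets Psmg4 was at -0.0077.

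The remaining members lay near no difference by the median of probe sets or were dim. The nuclear activator gene Psme3 (-0.11), the activator gene Psme4 (-0.048) and the inhibitor gene Psmf1 (-0.11) overlapped between the groups. With the mean of probe sets Psme3 was at -0.21, Psme4 at -0.20 and Psmf1 at -0.10. Psmb11, the catalytic subunit of thymic epithelium, was at 6.62, 6.56 and 6.62 in KO and 6.46, 6.39 and 6.52 in WT. The KO arrays were all higher, with a difference of 0.15 (SE 0.13, adjusted p = 0.719), at a level little above the floor. Psma8, the alpha subunit of testis, lay under the floor, at 4.93, 5.07 and 4.80 in KO and 5.46, 4.90 and 5.06 in WT, and was not tested.

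**Figure D4:**
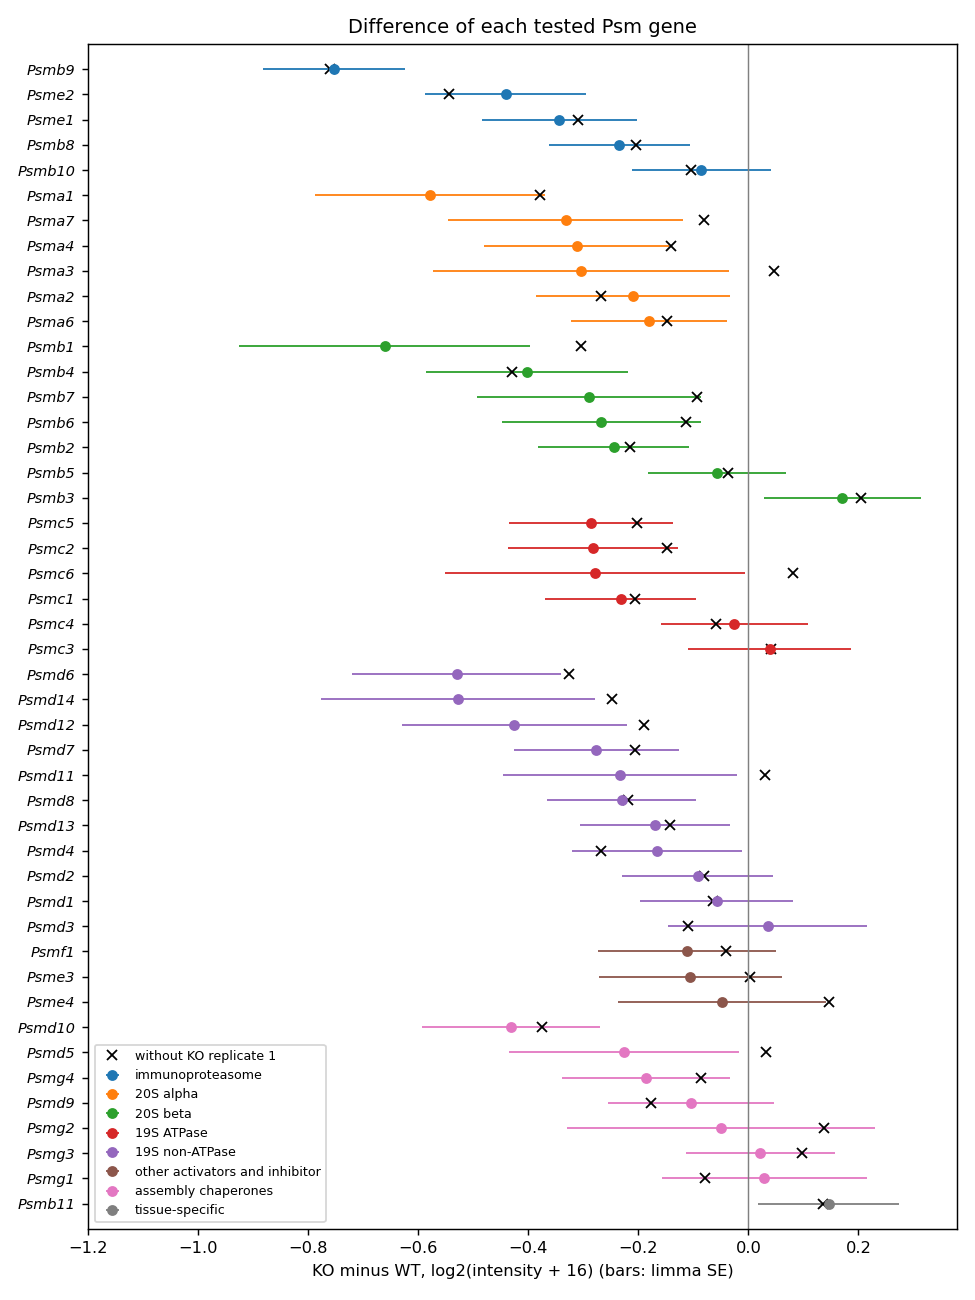
KO minus WT difference of the 46 tested genes on the log2(intensity + 16) scale, grouped by subcomplex, with limma standard errors as bars and the value without KO replicate 1 as a cross. Psmb9 lies lowest at -0.75 with its cross at -0.76, while the cross of Psmb1 moves from the main value of -0.66 to -0.30.

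Over the whole family 40 of 46 tested genes had negative differences, with a median of -0.23, or -0.13 and 35 of 46 without KO replicate 1. Among all tested genes 59.7% were negative, with a median of -0.052, or 51.7% and -0.0082 without KO replicate 1. The KO arrays lay all below the WT arrays for 15 genes, where 11.3% of tested genes did, and all above them for 2, where 6.1% did. After centring on the tested genes 9 had no overlap, 7 of the 15 with Psmc5 and Psmd12 added, where 6.86% of tested genes did, and 33 of 46 were negative, where 41.1% of tested genes were. Limma passed 0 of the 46 genes after adjustment over all tested genes, where 0.266% passed as lower and 0.0072% as higher. At an unadjusted p of 0.05, 7 were lower (Psmb9, Psme2, Psme1, Psma1, Psmb1, Psmd6 and Psmd10), where 7.67% of tested genes were, and 0 were higher, where 2.99% were (10.7% in either direction). Without KO replicate 1 there were 4 lower, where 6.72% of tested genes were. A test of every probe set by itself passed 0 of 566, beside 0.000856% of all probe sets with 1 symbol, with 36 lower and 4 higher at an unadjusted p of 0.05, where 4.62% and 3.24% of all were.

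Other genes of the pathway were taken from lists written with the members. Of 15 tested proteasome genes outside the Psm names and shuttle factors, 12 had negative differences, with a median of -0.14. Of these 15, 0 passed and 1 was lower at an unadjusted limma p of 0.05. Over all tested genes 59.7% were negative, with a median of -0.052, and 7.67% were lower at that p. Centred on the tested genes the list's median was -0.033, where that of all tested genes was 0.051. Shfm1, now named Sem1, the smallest cap subunit, was at 7.58, 7.75 and 7.67 in KO and 8.48, 8.30 and 8.51 in WT. The groups did not overlap, with a difference of -0.76 (adjusted p = 0.0666), or -0.72 without KO replicate 1. The cap-associated deubiquitinases Uchl5 (-0.32) and Usp14 (-0.35) had the next smallest p-values, and without KO replicate 1 they were at -0.094 and -0.043.

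Of 15 tested regulators of proteasome genes 9 had negative differences, with a median of -0.099, where 59.7% of all tested genes were negative. None passed, and 1 was lower at an unadjusted limma p of 0.05, where 7.67% of tested genes were. Centred on the tested genes the list's median was 0.0038, where that of all tested genes was 0.051. The 3 with the smallest p-values were the interferon regulatory factors Irf8 (-0.42) and Irf1 (-0.22), both with KO arrays all below WT arrays, and Nfe2l3 (-0.40, and -0.12 without KO replicate 1). Such a separation was seen for 3 of 15, where 11.3% of tested genes had it. After centring it was seen for 0 of 15, where 6.86% of tested genes had it, so neither Irf8 nor Irf1 kept it. Irf1, an activator of inducible proteasome genes, was at 9.82, 9.84 and 9.85 in KO and 10.09, 9.97 and 10.12 in WT (adjusted p = 0.590). Nfe2l1, the main activator of constitutive proteasome genes when proteasome activity is short, differed by -0.099 (adjusted p = 0.842), and its groups overlapped.

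Of 12 tested genes of the class I peptide pathway 9 had negative differences, with a median of -0.14, where 59.7% of all tested genes were negative. None passed, and 2 were lower at an unadjusted limma p of 0.05, where 7.67% of tested genes were. KO arrays lay all below WT arrays for 6 of 12, where 11.3% of tested genes did, and after centring for 1 of 12, where 6.86% did. Centred on the tested genes the list's median was -0.033, where that of all tested genes was 0.051. Tap2, a subunit of the transporter that carries peptides into the endoplasmic reticulum, was at 9.61, 8.96 and 9.55 in KO and 10.04, 10.06 and 10.31 in WT. All KO arrays were lower, with a difference of -0.77 (adjusted p = 0.193). The chaperones Calr (-0.45) and Pdia3 (-0.26) followed, both without overlap. In RefSeq's gene order on chromosome 17, Psmb9, Tap1, Psmb8 and Tap2 stand next to each other. Tap1, the other transporter subunit, was at 11.70, 11.40 and 11.34 in KO and 11.64, 11.62 and 11.63 in WT. Its difference was -0.15 with overlapping groups, so along this row the differences were -0.75, -0.15, -0.23 and -0.77. The class I heavy chain gene H2-K1 (0.11) overlapped between the groups, and B2m, the light chain, differed by -0.026 without overlap.

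Of 10 tested ubiquitin and p97 genes 8 had negative differences, with a median of -0.11, where 59.7% of all tested genes were negative. None passed, and 0 did at an unadjusted limma p of 0.05. Centred on the tested genes the list's median was -0.0044, where that of all tested genes was 0.051. The 3 with the smallest p-values were the ubiquitin-conjugating Ube2n (-0.35) and the p97 cofactors Nsfl1c (-0.21) and Ufd1l (0.23). Without KO replicate 1 the list's median was 0.035.

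Markers of other cells, some of which carry immunoproteasome genes at high levels, were read beside these results. All 6 macrophage markers on the arrays were lower in KO, with summed intensities from 448 to 571 in KO and from 572 to 744 in WT, and Emr1 lay under the floor. Dendritic cell markers were lower for 5 of 5, with sums from 180 to 275 in KO and 249 to 302 in WT, and Itgax, Flt3 and Siglech lay under the floor. B cell markers were lower for 4 of 6, with sums from 997 to 1157 in KO and 986 to 1402 in WT, and Ms4a1, Pax5 and Blk lay under the floor. NK markers were lower for 4 of 6, with sums from 582 to 711 in KO and 668 to 774 in WT, and Klrd1 and Gzma lay under the floor. The 2 CD8 T cell markers, of which 1 was lower, summed to 361 to 436 in KO and 458 to 505 in WT. Alas2, an erythroid marker, lay under the floor. Treg and T cell markers, all 9 above the floor, were lower for 8 of 9. Their sums ran from 37417 to 40731 in KO and from 41808 to 41936 in WT. All these sums are without centring, and 59.7% of all tested genes had negative differences. At an unadjusted limma p of 0.05, 2 macrophage markers were lower, C1qc (-0.47) and Csf1r (-0.54). The NK marker Ncr1 (-0.85) and the T cell marker Cd3d (-0.41) were lower as well, where 7.67% of all tested genes were. No marker was higher at that p, and none passed the adjusted threshold. Centred on the tested genes, 5 of 9 Treg and T cell markers were negative, where 41.1% of tested genes were. So were 4 of 5 tested macrophage markers, 2 of 3 of B cells and 1 of 2 of dendritic cells. For NK cells it was 1 of 4, and for CD8 T cells 1 of 2. The part of these cells in the difference of the inducible genes was not tested.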

How the data were processed

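The authors' deposited values are intensities on a linear scale, 1 per exon-level probe set and array, summarised with PLIER in Affymetrix Expression Console 1.4, per the labels. Background correction, normalization between arrays and genome build are not given in the sources used. Groups and replicate numbers came from sample titles, with 1 mouse behind each array per the labels. From these, log2(intensity + 16) was computed, which understates differences of dim probe sets. Probe sets with exactly 1 symbol (233753 of 269751) were summarised per gene by their median, and 8 probe sets that pair a Psm symbol with another gene were not used. Symbols came from the platform annotation, and 48 of 48 Psm symbols were found in RefSeq's GRCm38.p6 table. Genes with a mean under the 40th percentile (5.90) were left out, leaving 13891 genes and 46 members. Limma 3.58.1, run in R 4.3.3, gave the KO minus WT differences (lmFit, eBayes, two-sided, Benjamini-Hochberg over all tested genes, threshold 0.05), and the adjusted p-values of genes are limma's. The procedure was tested on simulated data. Within-array pairs used an exact permutation test. Means ± SD are over 3 arrays.

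The members and gene lists were chosen with earlier results of these data known. The naming rule gave every array's value for the inducible genes, the catalytic genes they replace and members without overlap of the groups, and the 3 genes of each other list with the smallest p; other genes with values were chosen after these were seen. The settings varied were the pseudocount (1 or 64), the filter (none or the 60th percentile), mean or bright probe sets, quantile normalization, median centring, other variance models, array weights, a threshold of 0.10 for the adjusted p, an unmoderated test, single probe sets, a replicate block and each array left out. Centring on the tested genes was added after seeing the data. Same-numbered arrays of the groups had deviations that correlated at 0.15, 0.17 and 0.010, so the numbers were not taken to pair mice.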

Additional observations from a re-analysis of the deposited data

How the results depend on the processing

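No member passed in limma's main setting. Psmb9 was the 1 member past the threshold with a pseudocount of 64 (adjusted p = 0.0268), the filter at the 60th percentile (0.0438), a trended and robust variance (0.0356), array weights (0.0178) or an adjusted p of 0.10, and 0 passed in the other settings. Its adjusted p ranged up to 0.274 over all settings. The count of all genes, 38, was 60 with the mean of probe sets, 22 with bright probe sets, 125 with array weights, 0 in the unmoderated test and 4 to 37 with an array left out (4 without WT replicate 1 or 2, 7 without WT replicate 3 and 11 without KO replicate 3). With the replicate block, used though the numbers do not pair mice, 67 genes and 0 members passed. Each number has 1 KO and 1 WT array, so the block cannot change a difference. The pair differences of -0.49, -0.18 and 0.20 are therefore the same with it by design. The inducible median of -0.34 was -0.14 with the mean of probe sets and -0.24 centred on the tested genes, where 9 members had KO arrays all below WT arrays. The constitutive median of -0.26 was -0.22 with the mean of probe sets, and by that summary it lay below the inducible one.

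Differences that changed sign were mostly close to 0, but those of Psme2, Psma3, Psmc6, Psmd5, Psmd11 and Psmb3 and of the Psmb10 pair were not, and the cause was not tested. With bright probe sets Psmb3 was at -0.19, Psmc4 at 0.035, Psmd1 at 0.015, Psmf1 at 0.023 and the Psmb10 pair at -0.022. With the mean of probe sets Psme2 was at 0.17, Psmc4 at 0.063 and Psmg1 at -0.031. Centred on the tested genes, Psmb10 was at 0.017, Psmb5 at 0.045, Psmc4 at 0.077, Psmd1 at 0.045, Psmd2 at 0.0099, Psme4 at 0.054 and Psmg2 at 0.053. Psmc4 was at 0.0061 and Psme4 at 0.011 with quantile normalization, and Psmc4 at 0.0094 with median centring. With array weights Psmd3 was at -0.049, Psme4 at 0.068 and Psmg2 at 0.011. With an array left out, ranges that crossed 0 were -0.50 to 0.047 for Psma3, -0.029 to 0.14 for Psmc3, -0.064 to 0.033 for Psmc4, -0.47 to 0.082 for Psmc6, -0.13 to 0.014 for Psmd1, -0.11 to 0.17 for Psmd3, -0.38 to 0.033 for Psmd5, -0.37 to 0.031 for Psmd11, -0.20 to 0.021 for Psme3, -0.18 to 0.15 for Psme4, -0.10 to 0.20 for Psmg1, -0.37 to 0.14 for Psmg2, -0.024 to 0.10 for Psmg3 and -0.012 to 0.36 for the Psmb10 pair. The filters, the variance models, the unmoderated test, the threshold of 0.10 and the replicate block cannot change a difference. Psmb8, Psmb9 and Psme1 were negative in every setting that can. This was not particular to inducible genes, since many others, such as Psma1, Psmb1, Psmb6, Psmc1, Psmd6 and Psmd10, were negative throughout as well.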
